A study of Oncorhynchus mykiss with 60 samples.

Results

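The SoxB1 genes encode transcription factors with an HMG-box DNA-binding domain, and in fish the group holds sox1a, sox1b, sox2, sox3, sox19a and sox19b. The members described here are the rows of the trout count table that carry one of these 6 names, either as their own name or as the name of their zebrafish ortholog in the authors' deposited ortholog table. The rule found 7 of 23471 genes. They were 3 copies of sox19a (LOC110500375, LOC110534223 and LOC110491026), sox19b, sox2 and 2 copies of sox3 (LOC110504954 and LOC110488760), while no row carried the name sox1a or sox1b. The names are those of the zebrafish orthologs, and that the trout copies have the same roles is not shown by the name. LOC110500375 is called sox19a after that table, but it shared more neighbouring genes with sox19b than with the other sox19a copies, as given below.

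In zebrafish, sox19b mRNA is laid down in the egg by the mother, and the Sox19b protein acts with Pou5f3 and Nanog on the chromatin of the genes that are first switched on by the embryo. The embryo later makes its own sox19a, sox3 and sox2, whose proteins keep cells of the early ectoderm in an undifferentiated state and prepare neural tissue. Salmonid fish went through an additional duplication of the whole genome, so that a zebrafish gene often has several trout copies.

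Rainbow trout (Oncorhynchus mykiss) eggs and embryos were cut along the animal-vegetal axis into 5 sections, from A at the animal pole, where the embryo's cells form, to E at the vegetal pole of the yolk, and each section was sequenced as its own library (TOMO-seq). The stages were named by time after fertilization, in hours (0 hpf and 1 hpf) or days (1 dpf, labelled early blastula, and 3 dpf, labelled mid-blastula). The labels of the 0 hpf group name an unfertilized egg in one field and a zygote in another, and those of the 1 hpf group name a single cell in one field and early cleavage in another, and times are therefore used as the stage names. No treatment, genotype, strain or parent is given. Counts of 3 replicates were analysed at 0 hpf, 1 dpf and 3 dpf and of 2 at 1 hpf, numbered 1 and 3, in 55 libraries, while the 5 libraries of 1 hpf replicate 2 were not analysed here.

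Library totals ran from 1.09 to 14.46 M counts, with a median of 4.6 M, and 3 counts, taken as the limit that a count of 0 allows, were worth 0.192 to 2.98 CPM. CPM here are counts scaled to a common library total with TMM factors, which allow for differences in composition. Each section was sequenced from the same mass of total RNA, so a level is a gene's share of the RNA of its section, and fewer cells that express a gene cannot be told apart from less of its RNA in each cell. The sections held their labelled pole: summed mRNAs of vegetal cytoplasm, such as dazl and grip2a, came to 207 to 485 CPM in section A and 7809 to 15070 CPM in section E over all stages. At 1 dpf a single replicate stood apart, and replicates that differed at other stages are given with the members concerned. In section A of 1 dpf replicate 3 a list of early zygotic genes summed to 120 CPM, against 347 and 299 CPM in replicates 1 and 2. In section A at 0 hpf the same list summed to 123, 159 and 113 CPM. Calls lost or gained without 1 dpf replicate 3 are named beside the result.

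Of the members, sox19a LOC110500375, sox19b and sox3 LOC110504954, were present at over 100 CPM in the eggs at 0 hpf. Sox19a LOC110500375 was the copy with an animal excess at every stage. In section A it stood at 360, 207 and 415 CPM at 0 hpf in replicates 1, 2 and 3, at 321 and 368 CPM at 1 hpf, at 450, 398 and 428 CPM at 1 dpf, and at 616, 638 and 785 CPM at 3 dpf. In section E it stood at 170, 150 and 158 CPM at 0 hpf, at 145 and 182 CPM at 1 hpf, at 148, 139 and 152 CPM at 1 dpf, and at 155, 159 and 184 CPM at 3 dpf. Sections A and E did not overlap at any stage, and section E kept within a narrow band while section A was highest at 3 dpf. The excess of A over E on the log2 scale was 0.99 at 0 hpf (SE 0.25, adjusted p = 0.00233), 1.13 at 1 hpf (SE 0.36, adjusted p = 0.0231), 1.59 at 1 dpf (SE 0.09, adjusted p = 4.23e-10) and 2.03 at 3 dpf (SE 0.22, adjusted p = 4.35e-07), by edgeR's quasi-likelihood test. The 0 hpf call was lost without replicate 3 (0.77, adjusted p = 0.0644), and the 1 hpf call was lost without the replicate term (1.13, adjusted p = 0.0832). By the same test, the change of this excess from 0 hpf to 1 dpf was not called (0.57, adjusted p = 0.513). Nor was its change from 1 dpf to 3 dpf (0.48, adjusted p = 0.278), so no growth of the excess is read from these values.

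The second section was the variable one for this copy. Section B held 410, 112 and 364 CPM at 0 hpf, 400 and 137 CPM at 1 hpf, 325, 326 and 292 CPM at 1 dpf, and 181, 139 and 381 CPM at 3 dpf. Its level in B at 0 hpf replicate 2 lay with that of sections C to E, and the same replicate also had the lowest level in section A.

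Sox19b, whose zebrafish counterpart is the maternally supplied SoxB1 factor of genome activation, was spread more evenly. In section A it stood at 213, 175 and 231 CPM at 0 hpf, at 223 and 260 CPM at 1 hpf, at 314, 262 and 326 CPM at 1 dpf, and at 211, 236 and 258 CPM at 3 dpf. In section E it stood at 195, 209 and 154 CPM at 0 hpf, at 159 and 197 CPM at 1 hpf, at 190, 206 and 232 CPM at 1 dpf, and at 162, 166 and 229 CPM at 3 dpf. The sections overlapped at 0 hpf and at 3 dpf, and did not at 1 hpf and 1 dpf. The A over E difference was 0.18 at 0 hpf (SE 0.19, adjusted p = 0.408) and 0.50 at 1 hpf (SE 0.23, adjusted p = 0.0938), which did not pass, and 0.57 at 1 dpf (SE 0.10, adjusted p = 8.64e-05) and 0.36 at 3 dpf (SE 0.14, adjusted p = 0.0276), which did. The 3 dpf call was lost without the replicate term (0.34, adjusted p = 0.145), without replicate 1 (0.31, adjusted p = 0.176) and without replicate 2 (0.25, adjusted p = 0.281). At 0 hpf the difference passed the threshold without replicate 2 (0.38, adjusted p = 0.0279) and turned to -0.043 without replicate 3. At 1 hpf it passed when libraries were scaled by their totals alone (0.70, adjusted p = 0.0165).

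Sox3 LOC110504954 had the opposite slope, and its slope was steeper at 3 dpf than at 1 dpf. Sox3 is a SoxB1 factor that in zebrafish is made throughout the early embryo. Its level in section A was 197, 213 and 186 CPM at 0 hpf, at 163 and 134 CPM at 1 hpf, at 124, 143 and 173 CPM at 1 dpf, and at 44.3, 34.1 and 31.1 CPM at 3 dpf. In section E it stood at 415, 423 and 495 CPM at 0 hpf, at 388 and 344 CPM at 1 hpf, at 380, 360 and 415 CPM at 1 dpf, and at 363, 372 and 405 CPM at 3 dpf. Section A lay below section E in every replicate of every stage, and the levels of section A at 3 dpf lay below those of section A at all earlier stages. The difference of A from E was -1.15 at 0 hpf (SE 0.11, adjusted p = 1.47e-07), -1.25 at 1 hpf (SE 0.15, adjusted p = 7.61e-05), -1.36 at 1 dpf (SE 0.09, adjusted p = 2.37e-09) and -3.37 at 3 dpf (SE 0.19, adjusted p = 1.53e-09), and these calls held in every alternative that was run.

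The loss at 3 dpf was found at the animal end. Section B at 3 dpf held 189, 222 and 202 CPM of LOC110504954, within the range of section B at 0 hpf to 1 dpf, which ran from 148 to 248 CPM. Sections C and D at 3 dpf stood at 305 to 424 CPM, against 306 to 397 CPM at 1 dpf. The A minus E difference at 3 dpf was lower than at 1 dpf by a log2 difference of -1.97 (SE 0.18, adjusted p = 2.62e-11, n = 3 replicates each). By the same edgeR test its change from 0 hpf was not called at 1 hpf (-0.14, adjusted p = 0.989) or at 1 dpf (-0.23, adjusted p = 0.593).

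**Figure D1:**
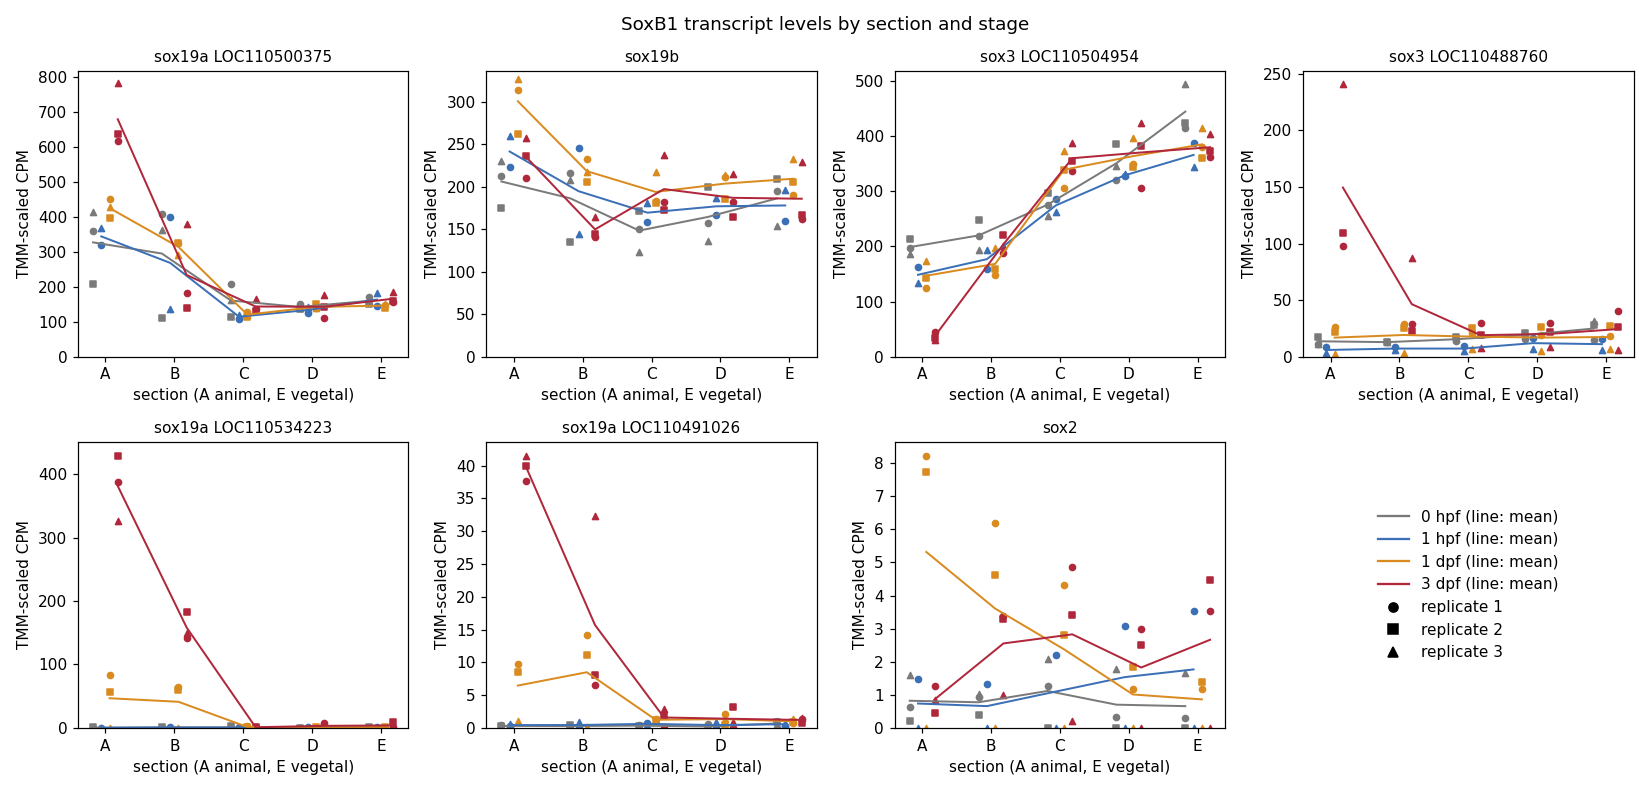
Level of each SoxB1 gene copy in TMM-scaled CPM (vertical axis, its range set for each copy) in sections A to E (horizontal axis), with 1 point for each library, replicates by symbol, stages by colour and lines through the means. Sox19a LOC110500375 and LOC110534223 peak in section A at 3 dpf (means 679 and 381 CPM), whereas sox3 LOC110504954 falls there to a mean of 36.5 CPM.

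The other sox3 copy, LOC110488760, was also lower in A than in E at 0 and 1 hpf, but rose in section A from 1 dpf to 3 dpf. In section A it stood at 11.6, 17.6 and 11.6 CPM at 0 hpf, at 8.84 and 2.93 CPM at 1 hpf, at 25.8, 22.0 and 2.69 CPM at 1 dpf, and at 98, 110 and 241 CPM at 3 dpf. In section E it stood at 14.8, 27.9 and 31.9 CPM at 0 hpf, at 15.7 and 6.31 CPM at 1 hpf, at 18.4, 27.2 and 6.62 CPM at 1 dpf, and at 40.6, 26.5 and 6.09 CPM at 3 dpf. All 3 values of section A at 3 dpf lay above every other value of section A and of section E. The difference of A from E was -0.89 at 0 hpf (SE 0.19, adjusted p = 0.000518), -0.91 at 1 hpf (SE 0.28, adjusted p = 0.0199), -0.08 at 1 dpf (SE 0.25, adjusted p = 0.785) and 2.56 at 3 dpf (SE 0.62, adjusted p = 0.00141).

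The early calls of this copy did not hold in every alternative. The 0 hpf call was lost without replicate 3 (-0.52, adjusted p = 0.0728). The 1 hpf call was lost without the replicate term (-0.88, adjusted p = 0.408) and with library sizes (-0.70, adjusted p = 0.0654). The 1 hpf difference was -1.10 without replicate 1 and -0.83 without replicate 3. Those fits leave 1 replicate at 1 hpf, so they cannot show whether the call rested on a single replicate. Section A lay below section E in both 1 hpf replicates. The 3 dpf excess kept its call but not its size, at 3.29 without replicate 1 and 1.66 without replicate 3. The A minus E difference at 3 dpf was higher than at 1 dpf by 2.67 on the log2 scale (SE 0.63, adjusted p = 0.000687), or by 3.34 without 3 dpf replicate 1 and 1.74 without 3 dpf replicate 3.

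The share of sox3 counts assigned to each copy in section A differed at 3 dpf. Gene length was not accounted for, so a share says how the counts divided and not which copy had more RNA. At 0 hpf LOC110488760 took 5.56 to 7.61% of the counts of both copies in section A, and at 1 hpf it took 2.14 to 5.15%. At 1 dpf its share in section A was 1.53 to 17.2%, and at 3 dpf 68.9 to 88.6%, without overlap between 3 dpf and any earlier stage. In section B at 3 dpf it took 9.26 to 30.2%, and in sections C to E at 3 dpf 1.48 to 10.1%. How reads matching both copies were counted is not given, so these shares describe only the counts assigned to each copy, and the split between copies of sox19a is uncertain in the same way.

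**Figure D2:**
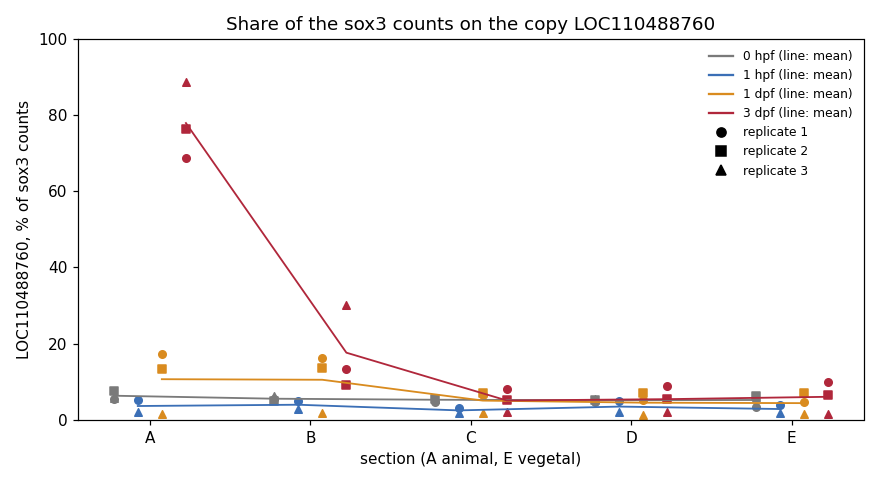
Share of the summed counts of both sox3 copies that fell on LOC110488760, in % (vertical axis), in sections A to E (horizontal axis), with 1 point for each library, replicates by symbol, stages by colour and lines through the means. At 3 dpf the share averages 77.9% in section A and 6.06% in section E, while at the other stages the means of all sections are at most 10.7%.

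The remaining copies of sox19a were close to the counting limit in the egg and appeared in the animal sections later. In section A, LOC110534223 stood at 0.22, 0.65 and 0.26 CPM at 0 hpf, at 0.29 and 0 CPM at 1 hpf, at 83.8, 56.3 and 0.11 CPM at 1 dpf, and at 388, 429 and 327 CPM at 3 dpf. At 1 dpf replicates 1 and 2 were far above the egg and replicate 3 was not, whereas at 3 dpf all 3 replicates lay above every earlier value. The copy was present in section B as well, at 142, 183 and 149 CPM at 3 dpf and at 63.8, 59.7 and 0 CPM at 1 dpf, while no library of sections C to E exceeded 9.98 CPM at any stage.

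In section E, LOC110534223 held 1.76, 9.98 and 0 CPM at 3 dpf and 2.17, 1.68 and 0 CPM at 1 dpf. The excess of A over E was 6.38 on the log2 scale at 3 dpf (SE 0.53, adjusted p = 2.98e-08) and 5.20 at 1 dpf (SE 0.25, adjusted p = 3.20e-11). The 3 dpf value was 8.53 without replicate 2, whose section E was the highest of the 3. Without the replicate term the 1 dpf value was 5.05 with a larger SE (1.77, adjusted p = 0.0296). Replicate 3 of 1 dpf held 1 count in section A and 0 in section E. At 0 and 1 hpf the copy did not pass the filter on low counts. The A minus E difference at 1 dpf was higher than at 0 hpf by 5.96 (SE 1.25, adjusted p = 0.00753). That call was lost without the replicate term (6.36, adjusted p = 0.656), without 0 hpf replicate 2 (6.04, adjusted p = 0.139), without 0 hpf replicate 3 (6.17, adjusted p = 0.054) and without 1 dpf replicate 1 (5.84, adjusted p = 0.0704). Without 1 dpf replicate 3 the difference was also 5.96 (adjusted p = 0.00979).

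LOC110491026 was also near the counting limit in the egg and highest in section A at 3 dpf. In section A it stood at 0.43, 0.22 and 0.26 CPM at 0 hpf, at 0.29 and 0.56 CPM at 1 hpf, at 9.79, 8.58 and 1.01 CPM at 1 dpf, and at 37.7, 40.0 and 41.5 CPM at 3 dpf. In section E it did not exceed 1.52 CPM in any library. Again replicate 3 of 1 dpf lay far below replicates 1 and 2, and the replicates of 3 dpf lay close together. The excess of A over E was 5.16 at 3 dpf (SE 0.66, adjusted p = 2.81e-06) and 2.78 at 1 dpf (SE 0.83, adjusted p = 0.00782). The 1 dpf value was 3.53 without replicate 3, and its call was lost without replicate 1 (1.92, adjusted p = 0.246), without replicate 2 (2.40, adjusted p = 0.0937), without the replicate term (2.72, adjusted p = 0.0554) and with DESeq2 (2.34, adjusted p = 0.066). Section B held 6.52, 8.13 and 32.4 CPM at 3 dpf and 14.2, 11.1 and 0.15 CPM at 1 dpf. At 3 dpf section A was above section B in all 3 replicates, while at 1 dpf section B was above section A in replicates 1 and 2.

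Sox2, known as a factor of pluripotent and neural cells, was scarce at all stages and reached at most 8.23 CPM. In section A it stood at 0.65, 0.22 and 1.60 CPM at 0 hpf, at 1.47 and 0 CPM at 1 hpf, at 8.23, 7.72 and 0 CPM at 1 dpf, and at 1.27, 0.45 and 0.86 CPM at 3 dpf. In section E it stood at 0.30, 0 and 1.67 CPM at 0 hpf, at 3.53 and 0 CPM at 1 hpf, at 1.18, 1.40 and 0 CPM at 1 dpf, and at 3.53, 4.46 and 0 CPM at 3 dpf. At 3 dpf replicates 1 and 2 held less in section A than in any other section, on 5 and 1 counts in section A. Their other sections had 3 to 17 counts each, so this order is close to the counting limit. At 1 dpf the level was graded in the same replicates, which held 6.20 and 4.62 CPM in section B and 4.31 and 2.81 CPM in section C.

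The sox2 counts differed between replicates of a stage, and no replicate number was low at every stage. Over the 5 sections, replicates 1, 2 and 3 held 34, 2 and 66 counts of sox2 at 0 hpf, replicates 1 and 3 held 42 and 0 counts at 1 hpf, and replicates 1, 2 and 3 held 123, 92 and 0 counts at 1 dpf and 44, 50 and 12 counts at 3 dpf. No sox2 count was found in the 10 libraries of replicate 3 at 1 hpf and 1 dpf, which held 62.1 M counts and allowed at most 0.336 to 1.05 CPM each. At 3 dpf the difference of A from E was -1.27 on the log2 scale (SE 0.77, adjusted p = 0.147), and it passed the threshold without replicate 3 (-2.09, adjusted p = 0.0127). At 1 dpf it was 2.66 (SE 0.44, adjusted p = 0.000184), a call lost without the replicate term (2.54, adjusted p = 0.212), and 2.67 without replicate 3 (adjusted p = 1.61e-05). The A minus E difference at 3 dpf was lower than at 1 dpf by a log2 difference of -3.93 (SE 0.88, adjusted p = 0.0005), a call lost without the replicate term (-4.12, adjusted p = 0.18). It was -3.17 without 3 dpf replicate 2 and -4.76 without 3 dpf replicate 3.

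**Figure D3:**
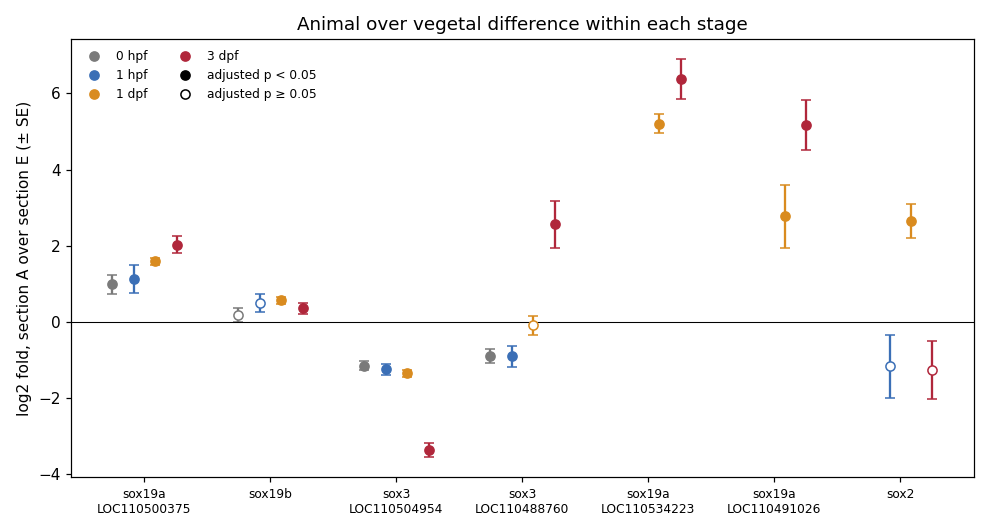
Fitted log2 fold of section A over section E with its SE (vertical axis) for each SoxB1 copy (horizontal axis), with stages by colour and filled points for an adjusted p below 0.05. Both later sox19a copies and sox19a LOC110500375 lie above 0 wherever they were tested, sox3 LOC110504954 lies below 0 at every stage, and sox3 LOC110488760 lies above 0 at 3 dpf (2.56) and below it at 0 hpf (-0.89).

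The counts of members that differed between sections A and E stand beside those of all genes. Of 4 members that passed the filter at 0 hpf, 1 was higher in A and 2 were lower, where 32% of all genes tested were higher and 32% lower. Of 5 members tested at 1 hpf, 1 was higher and 2 were lower, where 27.6% of all genes were higher and 24.9% lower. Of 7 tested at 1 dpf, 5 were higher and 1 was lower, where 32.9% of all genes were higher and 30.5% lower. Of 7 tested at 3 dpf, 5 were higher and 1 was lower, where 38.1% of all genes were higher and 34.3% lower. Most genes of these libraries differed between the poles, and the counts at 0 and 1 hpf are near that background. At 1 dpf LOC110534223, LOC110491026 and sox2, 3 of the 5 higher members, had few counts outside the sections where they were high and passed the filter through those, so the later counts of higher members support nothing further.

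The test of any difference among the 5 sections called 3 of 4 members at 0 hpf (56.1% of all genes), 3 of 5 at 1 hpf (46.1%), 6 of 7 at 1 dpf (62.4%) and 6 of 7 at 3 dpf (69.8%). The member not called was sox3 LOC110488760 at 1 dpf (adjusted p = 0.917) and sox2 at 3 dpf (adjusted p = 0.424). Sox19b was not called at 0 hpf (adjusted p = 0.157) or at 1 hpf (adjusted p = 0.217), and sox2 was not called at 1 hpf (adjusted p = 0.558). At 1 dpf and 3 dpf LOC110534223 and LOC110491026 had few counts outside sections A and B and passed the filter through those sections. The counts of 6 of 7 therefore support nothing further.

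Between stages, the A minus E difference moved in 0 of 7 members at 1 hpf relative to 0 hpf by edgeR's quasi-likelihood test, with 0 members at an unadjusted p below 0.05 and 0 called by DESeq2, where 0.0767% of all genes were called higher and 0.115% lower. It was higher in 1 of 7 members at 1 dpf relative to 0 hpf, LOC110534223, where 0.882% of all genes were higher and 0.644% lower. That copy was near the counting limit at 0 hpf and passed the filter through later libraries, so this count supports nothing further. For LOC110491026 it was 3.96 (SE 1.47, adjusted p = 0.197), and it passed without 1 dpf replicate 3 (4.75, adjusted p = 0.0425). At 3 dpf relative to 1 dpf it was higher in 1 of 7 members, sox3 LOC110488760, and lower in 2, sox3 LOC110504954 and sox2, where 22.8% of all genes were higher and 21.2% lower.

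Within section A most calls, of the members and of all genes, lay between 1 dpf and 3 dpf. The 1 dpf group was mixed, with replicate 3 apart as given above. Over all alternatives, 99 to 1853 genes were called at 1 dpf against 0 hpf (503 in the main fit). The part of this split in these counts was not tested, so no timing is read from them. At 1 hpf relative to 0 hpf, 0 of 7 members were called by edgeR's quasi-likelihood test or by DESeq2, and 1 had an unadjusted p below 0.05, where 0.618% of all genes were higher and 0.311% lower. At 1 dpf relative to 0 hpf, 2 of 7 members were higher and 0 lower, where 1.39% of all genes were higher and 0.786% lower. Those members, LOC110534223 and LOC110491026, were near the counting limit at 0 hpf and passed the filter through later stages, so this count supports nothing further. At 3 dpf relative to 1 dpf, 4 of 7 were higher and 2 were lower, where 25.5% of all genes were higher and 23.9% lower.

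The members that were higher in section A at 1 dpf than at 0 hpf were LOC110534223, by 7.17 on the log2 scale (SE 1.5, adjusted p = 0.0373), and LOC110491026, by 4.32 (SE 0.77, adjusted p = 0.0197). Both rested on 9 counts in section A over the 3 replicates at 0 hpf. Without 1 dpf replicate 3, the difference was 7.77 for LOC110534223 (adjusted p = 4.44e-06) and 4.85 for LOC110491026 (adjusted p = 3.07e-05). Sox19b missed the threshold (0.55, SE 0.14, adjusted p = 0.0615) and passed with a replicate block (adjusted p = 0.042), with library sizes (adjusted p = 0.0421) and with DESeq2 (adjusted p = 0.00491). The call of LOC110534223 was lost without 0 hpf replicate 1 (6.97, adjusted p = 0.16) or 3 (6.94, adjusted p = 0.175) and without 1 dpf replicate 1 (6.42, adjusted p = 0.123) or 2 (7.01, adjusted p = 0.106). The call of LOC110491026 was lost without 0 hpf replicate 1 (4.61, adjusted p = 0.0922) or 3 (4.12, adjusted p = 0.119) and without 1 dpf replicate 1 (3.86, adjusted p = 0.0785) or 2 (4.06, adjusted p = 0.075).

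At 3 dpf relative to 1 dpf, section A gained sox3 LOC110488760 by 3.09 on the log2 scale (SE 0.67, adjusted p = 0.0028), LOC110534223 by 2.95 (SE 0.94, adjusted p = 0.0226), LOC110491026 by 2.56 (SE 0.58, adjusted p = 0.00355) and LOC110500375 by 0.60 (SE 0.21, adjusted p = 0.0321). Sox3 LOC110504954 fell in section A by 2.08 on the log2 scale (SE 0.17, adjusted p = 3.90e-06). Sox19b fell there by 0.43 on the log2 scale (SE 0.14, adjusted p = 0.0237). Sox2 did not pass the test (-2.62, SE 1.41, adjusted p = 0.149), and it did without 1 dpf replicate 3, which held no sox2 count (-3.21, adjusted p = 0.0181).

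Several of these calls were close to the threshold. That of LOC110500375 was lost with library sizes (0.28, adjusted p = 0.265), without 1 dpf replicate 1 (adjusted p = 0.0549), 2 (adjusted p = 0.0926) or 3 (adjusted p = 0.0681) and without 3 dpf replicate 2 (adjusted p = 0.0606) or 3 (adjusted p = 0.109). That of LOC110534223 was lost with DESeq2 (3.03, adjusted p = 0.07), without 1 dpf replicate 2 (adjusted p = 0.0582) and without 3 dpf replicate 2 (adjusted p = 0.0573). Its difference was 3.71 without 1 dpf replicate 1 and 2.36 without 1 dpf replicate 3. That of sox19b was lost without 1 dpf replicate 1 (adjusted p = 0.0747) or 3 (adjusted p = 0.0691) and without 3 dpf replicate 1 (adjusted p = 0.0941) or 2 (adjusted p = 0.05). The calls of both sox3 copies and of LOC110491026 held in every alternative.

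**Figure D4:**
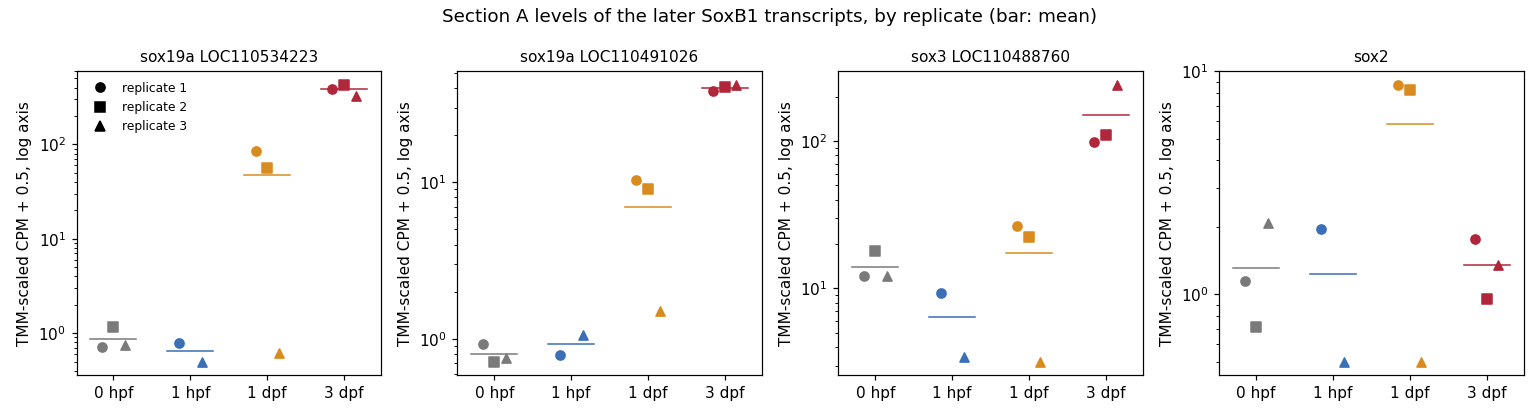
Level in section A, as TMM-scaled CPM plus 0.5 on a log axis whose range is set for each copy (vertical axis), at each stage (horizontal axis) for the 4 members that were low at 0 hpf, with 1 point for each replicate by symbol and bars at the means. The triangle of 1 dpf replicate 3 lies below the other replicates of 1 dpf for all 4 members, while at 3 dpf the replicates of both sox19a copies lie between 327 and 429 CPM and between 37.7 and 41.5 CPM.

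Summed over the 5 sections, fewer members were called. The sums add counts, so a section sequenced more deeply weighs more, and they are not levels of the whole egg or embryo. At 1 hpf relative to 0 hpf 0 of 7 members were called by edgeR's quasi-likelihood test or by DESeq2 and 0 had an unadjusted p below 0.05, where 2.21% of all genes were higher and 1.27% lower. At 1 dpf relative to 0 hpf, 1 of 7 was higher, LOC110491026 by 3.44 on the log2 scale (SE 0.70, adjusted p = 0.0201), where 4.81% of all genes were higher and 3.21% lower. The call was for a copy near the counting limit at 0 hpf that passed the filter through later stages, so this count supports nothing further. That call was lost without 0 hpf replicate 1 (adjusted p = 0.0872) or 3 (adjusted p = 0.0935) and without 1 dpf replicate 1 (2.82, adjusted p = 0.0728) or 2 (adjusted p = 0.0695), and the difference was 3.91 without 1 dpf replicate 3 (adjusted p = 0.00291) and 2.06 with an equal weight for each section. The difference of LOC110534223 was 5.46 (SE 1.55, adjusted p = 0.0581) and passed with DESeq2 (adjusted p = 0.0109), without 0 hpf replicate 2 (6.76, adjusted p = 0.0417) and without 1 dpf replicate 3 (6.06, adjusted p = 0.00448).

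At 3 dpf relative to 1 dpf, 1 of 7 sums was lower and 0 higher, where 8.06% of all genes were higher and 3.15% lower. The lower one was sox19b, at -0.40 on the log2 scale (SE 0.10, adjusted p = 0.0348). It was lost without 1 dpf replicate 1 (adjusted p = 0.119) or 3 (adjusted p = 0.121), without 3 dpf replicate 1 (adjusted p = 0.132) or 2 (adjusted p = 0.0987), and with an equal weight for each section (-0.24, adjusted p = 0.185). The sum of sox3 LOC110504954 gave -0.13 (SE 0.13, adjusted p = 0.647), although its level in section A differed as given above. Averaged over the sections, its level was 270 ± 21.3 CPM at 3 dpf against 281 ± 26.7 CPM at 1 dpf (SD, n = 3 each).

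At 1 dpf and 3 dpf, replicate 3 differed from replicates 1 and 2 for sox3 LOC110488760 as well as for sox2. The correlations over all genes given below also set it apart. At 0 hpf it did not stand apart for LOC110488760, whose means over the sections were 13.7, 19.4 and 18.4 CPM in replicates 1, 2 and 3. At 1 hpf replicate 3 lay below replicate 1 in every section, with means of 5.38 and 11.9 CPM. At 1 dpf replicate 3 held 2.69 to 6.62 CPM of LOC110488760 over the 5 sections, while replicates 1 and 2 held 18.4 to 28.9 CPM. At 3 dpf replicate 3 held 6.09 to 8.89 CPM in sections C to E, while replicates 1 and 2 held 19.3 to 40.6 CPM. In sections A and B of 3 dpf the order was reversed, and replicate 3 held the highest levels, 241 and 87.4 CPM. Whether replicates with the same number at different stages share parents is not given in the labels.

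Other sox genes and the known partners of the SoxB1 factors give the setting of these levels. In section A at 3 dpf relative to 1 dpf, 7 of 13 other sox genes were higher and 3 lower, where 25.5% of all genes were higher and 23.9% lower, with a median log2 difference of 1.44 against -0.07 over all genes tested. The same shares of all genes are the background of the lists that follow in section A. Those that were higher included the endoderm factor sox17 (4.46, SE 0.52, adjusted p = 4.56e-05). The endoderm factor sox32 had 1 count in one copy and 3 counts in the other in section A at 1 dpf, and averaged 30.2 ± 12.4 and 41.5 ± 14.8 CPM there at 3 dpf (SD, n = 3). The sox genes that were lower included sox11b (-0.59, SE 0.15, adjusted p = 0.00811), whose other copy, LOC110529436, averaged 331 ± 44.2 CPM in section A at 3 dpf against 116 ± 20.0 CPM at 1 dpf.

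Of 26 copies of the partners in genome activation, 13 were higher in section A at 3 dpf than at 1 dpf and 3 were lower, with a median of 0.76 against -0.07 over all genes. The copy of nanog LOC110535236 was higher by 3.18 on the log2 scale (SE 0.77, adjusted p = 0.00554), and the Nodal effector foxh1 by 4.22 (SE 0.84, adjusted p = 0.00163). Without 1 dpf replicate 3 these differences were 2.62 and 3.58, and that of foxh1 was 5.62 without 1 dpf replicate 1. The copy LOC110525445 of the zinc-finger gene znf462 was lower (-1.09, SE 0.14, adjusted p = 9.25e-05). Other znf462 copies went the other way in section A. LOC110535829 averaged 434.8 ± 40.32 CPM at 3 dpf against 257.4 ± 19.93 CPM at 1 dpf (SD, n = 3). LOC110536958 averaged 84.15 ± 8.7 CPM at 3 dpf against 36.68 ± 10.02 CPM at 1 dpf. At 3 dpf 23 of 26 were higher in A than in E and 1 was lower (38.1% and 34.3% of all genes), and at 0 hpf 19 of the 25 that passed the filter were higher and 3 lower (32% and 32% of all genes). The copy nanog LOC110535236 stood at 5.08 in A over E at 3 dpf (SE 0.36, adjusted p = 7.08e-09) and at -0.51 at 0 hpf (SE 0.14, adjusted p = 0.00476). The 3 dpf value was 5.79 without replicate 2. The 0 hpf call was lost without the replicate term (adjusted p = 0.16), with library sizes (adjusted p = 0.0657) and without replicate 1 (-0.35, adjusted p = 0.0809). The other nanog row had no such animal excess, at 397 ± 30.1 CPM in section A and 466 ± 45.4 CPM in section E at 3 dpf (SD, n = 3). In section A at 1 dpf that row averaged 272 ± 48.1 CPM.

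Of 22 copies of early neural and ectoderm genes, 12 were higher in section A at 3 dpf than at 1 dpf and 3 were lower, with a median of 1.78. The copies of zic2b, a zinc-finger gene of the neural plate, were higher by 5.50 (SE 0.58, adjusted p = 2.24e-05) and 4.85 (SE 0.27, adjusted p = 6.67e-07), and her5, a repressor of the midbrain region, by 5.49 (SE 0.81, adjusted p = 0.000219), which was 4.85 without 1 dpf replicate 3. The forebrain homeobox gene otx1 was lower in both copies (-2.15 and -1.77, adjusted p = 0.000367 and 0.000172). Of 26 copies of early zygotic genes, 22 were higher and 1 was lower, with a median of 5.06. Some had next to no counts in section A at 1 dpf, such as ndr1 with 0 and tbx16 LOC118945262 with 3. Such genes, sox32 among them, passed the filter on low counts through 3 dpf. The counts of higher genes in these lists therefore support nothing further.

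Summed markers of some other cell types also differed between these stages. The summed level of 6 rows of enveloping layer genes, among them keratins, was 830, 621 and 738 CPM in section A at 3 dpf, against 158, 77.1 and 10.2 CPM in section A at 1 dpf and 18.8 to 31.5 CPM in section E at 3 dpf. Yolk syncytial layer genes in 4 rows summed to 176 to 470 CPM in section A at 3 dpf, against 52.5 to 82 CPM at 1 dpf, and at 3 dpf section B held more of them than section A in each replicate (1028, 1173 and 254 CPM in section B). Of these rows mxtx2 was not higher in section A, at 63.9 ± 17.5 CPM at 3 dpf and 69.1 ± 14.4 CPM at 1 dpf (SD, n = 3). The higher sum came from other rows. Genes of liver and yolk precursors in 2 rows summed to 55.5 to 199 CPM in section A at 3 dpf, against 4.49 to 7.38 CPM at 1 dpf. The 1 matched row of sperm and testis genes stood at 0 to 1.71 CPM in section A at 3 dpf and 0.67 to 2.84 CPM at 1 dpf. The part of these cell types in the SoxB1 differences was not tested. Lists for follicle cells and blood matched no row of the table.

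Likeness of pattern was described by Pearson's r over the 20 means of stage and section, which share libraries and scaling. Sox19a LOC110534223 and LOC110491026 were most alike among the members (r = 0.97), and LOC110500375 and sox3 LOC110504954 were most opposed (r = -0.90), while the sox3 copies gave r = -0.45. Among genes with a symbol and a mean of at least 5 CPM, those closest to LOC110534223 were e1 (r = 0.987) and a copy of the germ cell gene nanos3 (r = 0.986), and the second closest to LOC110491026 was nanog LOC110535236 (r = 0.98). The splicing factor gene srsf5b (r = 0.964) and the kinase gene vrk1 (r = 0.961) were close to LOC110500375, and tmem120b and klc3 (r = 0.993 each) to sox3 LOC110504954. For sox3 LOC110488760 the closest was RBM3 (r = 0.944), for sox19b reep2 (r = 0.81) and for sox2 gng12a (r = 0.69).

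The gene order of RefSeq's trout assembly USDA_OmykA_1.1 groups the sox19 copies in part differently from their names. Among the 10 genes on each side, sox19a LOC110500375 and sox19b shared 5 names (dctn1a, eif4a1a, gal3st4, senp3b and trappc14), although LOC110500375 carries the name of sox19a. Not every neighbour had a name. The neighbours gave 14 names for LOC110500375, 7 for sox19b, 13 for LOC110491026 and 15 for LOC110534223. They gave 5 for sox3 LOC110488760, 11 for sox3 LOC110504954 and 12 for sox2. With the other copies named sox19a, LOC110500375 shared 1 name (eif4a1a, for LOC110491026) and 0 names (for LOC110534223). Whether LOC110500375 is a copy of sox19a or of sox19b was not tested. LOC110534223 and LOC110491026, the copies with like patterns, shared 2 names (ctdnep1a and f11r.1). The sox3 copies, with opposite courses in section A from 1 dpf to 3 dpf, shared 3 names (dlg3, rbmx and tm9sf5), and sox2 shared none with any member.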

How the data were processed

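The deposited values used here are whole-number read counts per gene of the authors' unnormalized table. Per the submitters' processing notes the tools were fastp 0.23.4, STAR 2.7.11, HTSeq 2.0.4 and DESeq2, the last without a version. Neither the build nor how HTSeq treated strand is stated (not given in the sources used here). Coordinates, sequences and gene lengths were therefore left out, and levels of different genes are not compared, apart from the share of counts between the sox3 copies. Per the labels' protocols, rRNA was depleted and the kit keeps strand. Of 23471 rows, 23470 matched a RefSeq symbol.

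The members, lists and tests were chosen with earlier results of these data known. All genes entered tests on counts with edgeR 4.0.16 under R 4.3.3 (quasi-likelihood F-test, TMM, filterByExpr with a minimum count of 10, Benjamini-Hochberg adjustment over all genes tested, called below 0.05). Within a stage, section and replicate entered the fit, since the sections of a replicate come from the same material. The A minus E difference between stages came from 1 fit of 55 libraries with replicates nested in stages. Sums over sections (11 sums) and section A were fitted on stage alone. Log2 folds are fitted values with standard errors. The scripts were tested on simulated data. Alternatives were no replicate term, a replicate block across stages, library sizes for scaling, no filter, DESeq2 1.42.0, limma 3.58.1 on section means with equal weight, and leaving out each replicate.

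Replicates differed beyond counting noise in all of 50 pairs (chi-square per degree of freedom 2.57 to 18.7). The labels call them biological but do not say which animals they came from, and a p-value here reflects only how these samples vary, part of which may be technical. Floors of 3 counts cover counting error only. Whether replicate numbers pair samples across stages was checked by the correlation across genes of deviations from the stage mean. For 1 dpf with 3 dpf the same numbers gave 0.53, 0.39 and 0.60, all above 0.1. Different numbers also did, with 0.47 for 3 dpf replicate 1 and 1 dpf replicate 2, and 0.26 for 3 dpf replicate 2 and 1 dpf replicate 1. At 1 hpf, replicate 1 gave 0.60 and 0.63 with 1 dpf replicates 1 and 2, and replicate 3 gave 0.69 with 1 dpf replicate 3. With 2 replicates at 1 hpf the deviations are equal and opposite, so the values of replicates 1 and 3 of 1 hpf are not separate results. Deviations of 3 replicates from their mean are not independent either. Within these limits the values set replicate 3 apart from replicates 1 and 2 and do not show a pairing number by number. The main stage tests used no pairing. For 0 hpf the correlations with later stages of the same number lay between -0.03 and 0.05.

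All members are named. For each, the genes with the highest Pearson's r over 20 means of log2(CPM + 0.5) were found, and from each list up to 3 genes that rose and 3 that fell by size were eligible to be named, with other copies of those genes named for contrast after their values were seen.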

Additional observations from a re-analysis of the deposited data

Results flagged for a closer look

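For 4 members the A minus E difference was tested to differ between stages. It was higher at 1 dpf than at 0 hpf for sox19a LOC110534223 by 5.96 on the log2 scale, where 0.882% of all genes were higher and 0.644% lower. At 3 dpf relative to 1 dpf it was higher for sox3 LOC110488760, by 2.67. It was lower at 3 dpf than at 1 dpf for sox3 LOC110504954, with a log2 difference of -1.97, and for sox2, with -3.93. Between these stages 22.8% of all genes were higher and 21.2% lower, so the number of members called is near that background. The calls for LOC110534223 and sox2 were lost without the replicate term (adjusted p = 0.656 and 0.18 by edgeR's quasi-likelihood test), and those for the sox3 copies held in every alternative. LOC110534223 was near the counting limit at 0 hpf. Its call was also lost without 0 hpf replicate 2, without 0 hpf replicate 3 and without 1 dpf replicate 1.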

How the results depend on the processing

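Sign and call were recomputed under every alternative for 43 results on single members that passed the threshold in at least 1 fit, and for the 2 plotted A against E differences that passed in none. Of these recomputed values, 308 kept direction and call, 50 lost the call, 16 gained it and 4 changed sign. The sign changes were sox19b at 0 hpf, which ran from -0.043 to 0.38 when a replicate was left out, and sox3 LOC110488760 at 1 dpf, which was 0.21 with library sizes and ran from -0.58 to 0.15 when a replicate was left out. In all, 43 results passed in no fit. Of these, 15 changed sign in at least 1 fit, in 36 fits, and no direction is read from them. This selection was made after the alternatives had been seen. The A against E test of sox2 at 1 hpf gave no value without replicate 1, since no count remained.

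Counts of members moved by over 1.5 times as follows, and the cause was not tested. With no replicate block, at 1 hpf 0 members were higher and 1 lower in A, and 1 differed among sections. With no replicate block 3 were higher in A at 1 dpf, 0 had a higher A minus E difference at 1 dpf than at 0 hpf, and 1 had a lower one at 3 dpf than at 1 dpf. With library sizes 2 were higher and 1 lower in A at 1 hpf. For the sums, DESeq2 called 2 higher at 1 dpf than at 0 hpf and 2 higher at 3 dpf than at 1 dpf, and equal section weights gave 1 higher and 0 lower at 3 dpf. At 3 dpf against 1 dpf the replicate block changed no call of a member, and LOC110534223 in section A was 3.68 (adjusted p = 0.00957).

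Leaving out 1 replicate gave 0 to 2 higher and 1 to 2 lower in A against E at 0 hpf, with 1 to 4 called among sections. It gave 1 lower at 1 hpf and 1 to 2 lower at 3 dpf. The A minus E difference was higher for 0 to 2 at 1 dpf against 0 hpf and for 1 to 2 at 3 dpf against 1 dpf. Sums were higher for 0 to 2 at 1 dpf and lower for 0 to 1 at 3 dpf. In section A, 0 to 2 were higher at 1 dpf, and 2 to 4 higher and 1 to 2 lower at 3 dpf. A stage left with 1 replicate was fitted with all stages, so the lone replicate is assumed to vary like the others.

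Library sizes moved the median A over E difference of all genes from -0.01 to 0.18 at 0 hpf, from 0.04 to 0.24 at 1 hpf and from 0.05 to 0.34 at 1 dpf, and the share of calls that were higher from 49.9 to 61.1%, from 52.5 to 65.6% and from 51.9 to 67.6%. For the A minus E difference they moved the median from -0.01 to 0.12 at 1 dpf against 0 hpf (57.8 to 79.3% higher) and from 0.04 to -0.36 at 3 dpf against 1 dpf (51.8 to 30.9%). For section A at 3 dpf against 1 dpf they moved it from -0.07 to -0.39 (51.6 to 36.4%). For levels, 15 of 56 means of sections A and E moved by over 1 SD. The number of all genes called at 1 dpf against 0 hpf varied over all alternatives. It ran from 43 to 512 for the A minus E difference (358 in the main fit) and from 99 to 1853 for section A (503). For the sums it ran from 378 to 4561 (1883). The shares of all genes given beside the members vary with these numbers. Depth limits sox2, LOC110491026 and the early levels of LOC110534223, whose counts were few.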

Other observations

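Sections A and B together held 97.9, 98.2 and 99.6% of the summed section levels of LOC110534223 in the replicates at 3 dpf, and 95.8 and 96.7% in replicates 1 and 2 at 1 dpf. Section A alone held 71.6, 68.9 and 68.4% at 3 dpf, and 54.4 and 46.9% in replicates 1 and 2 at 1 dpf. In 1 dpf replicate 3 the copy was near the counting limit in every section. For LOC110491026, sections A and B together held 97.1, 89.1 and 93.3% at 3 dpf and 84.9, 88.6 and 22.7% at 1 dpf, and section A alone held 82.8, 74.0 and 52.4% at 3 dpf and 34.7, 38.5 and 19.7% at 1 dpf. For sox19a LOC110500375, sections A and B together held 64.2 to 69.0% at 3 dpf and 44.3 to 62.9% at 0 hpf. For sox3 LOC110504954, section A held 2.14 to 3.58% at 3 dpf and 12.6 to 13.8% at 0 hpf. These shares give each section the same weight and do not account for the RNA content of a section.

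No count was found in 15 of 55 libraries for sox2, in 12 for LOC110534223 and in 7 for LOC110491026, and every library held counts of the other members.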
